A study of Mus musculus with 6 samples.

Results

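Linker histones are the proteins that bind nucleosomes where the DNA enters and leaves, and the 8 mouse genes H1f0, H1f1, H1f2, H1f3, H1f4, H1f5, H1f6 and H1f10 were followed in MEL cells. The 8 genes were chosen by symbol from 23892 genes with a transcript in the count tables, and each gene had 1 RefSeq transcript there. The choice by symbol used no measured value, although it was made with earlier results of these data known. MEL cells are a mouse erythroleukemia line, infected and transformed erythroid cells that grow as proerythroblasts, and DMSO releases them toward hemoglobin-making cells. Every group was this 1 line in suspension culture without further genetic change, and the groups were untreated log-phase cells (day 0) and cells held in 2% DMSO for 2 or 4 days. Each day has 2 libraries, labelled replicates 1 and 2, which makes 6 libraries with 35294930 to 53899476 counts on transcripts. No DMSO-free culture was carried to days 2 or 4 in these libraries, so time in culture and DMSO cannot be told apart.

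The family is usually divided by how its genes are expressed. H1f1 to H1f5 are replication-linked genes of the histone clusters, which are expressed mostly in S phase and whose mRNAs end after a short stem-loop instead of a poly(A) tail. H1f0 encodes the replacement subtype, which is made outside S phase, carries a poly(A) tail and is known to accumulate in cells that stop dividing and differentiate. H1f6 is a testis subtype, and H1f10 encodes a distant replacement subtype. The libraries were made with a kit that selects poly(A) RNA, so the level of a stem-loop mRNA here reflects the part of it that the selection kept.

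The members also differ in genomic setting. H1f1, H1f2, H1f3, H1f4 and H1f6 lie within 209.4 kb of chromosome 13 (GRCm38, 23555032 to 23764412), H1f5 lies on the same chromosome from 21779832 to 21780625, H1f0 is on chromosome 15 from 79028212 to 79030504, and H1f10 is on chromosome 6 from 87980421 to 87981482. All 8 genes are annotated with 1 exon and no intron. Short sequences of 2 kinds are shown because they are known from histone cluster genes. In the stretches searched, they were found in most members on chromosome 13 and not in H1f0 or H1f10. The first is AAACACA, known as the H1 box, with 7 bases on each side from the RefSeq promoter windows (250 bases before to 50 after the start, GRCm38) and the box in capitals.
H1f2, chr13:23738688-23738708, plus strand: gtgtaacAAACACAagttggg
H1f3, chr13:23554903-23554923, plus strand: gggcaacAAACACAgccacaa
H1f4, chr13:23622660-23622680, minus strand: gtgtaacAAACACAactccgc
H1f5, chr13:21780729-21780749, minus strand: gactaacAAACACAatttggg
H1f6, chr13:23695690-23695710, plus strand: ggaaaagAAACACAaatgccc
In these 5 genes the box began 112 to 122 bases before the annotated start. Searched on both strands, AAACACA was in 7.18% of 32851 promoter windows of the same length. It was in none of the windows of H1f0, H1f1 and H1f10. CCAAT, found in 37.4% of all windows, stood between 51 and 65 bases before the start in all 6 genes on chromosome 13 and was not in the windows of H1f0 or H1f10. The GENCODE model of H1f0 starts 238 bases after the RefSeq start, so its window covers another stretch than one drawn from GENCODE would. The bases just before that GENCODE start were not searched, so whether they hold an H1 box is not known here.

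The second sequence is the histone stem-loop, which does not overlap the H1 box and was searched on the sense strand of GENCODE M21 transcripts (GRCm38). The letters searched were the 16 capitals of H1f2, with any base at the tenth, and they are printed with up to 5 flanking bases.
H1f2, chr13:23739507-23739532, plus strand: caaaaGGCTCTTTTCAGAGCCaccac
H1f3, chr13:23555782-23555807, plus strand: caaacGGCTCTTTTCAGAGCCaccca
H1f4, chr13:23621777-23621802, minus strand: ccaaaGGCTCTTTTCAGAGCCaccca
H1f6, chr13:23696520-23696545, plus strand: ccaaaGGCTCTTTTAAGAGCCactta
H1f1, chr13:23764387-23764406, plus strand: ccaacGGCTCTTTTCAGAGC
The whole motif was in transcripts of 35 of 21877 protein-coding genes (0.16%). In H1f2, H1f3, H1f4 and H1f6 it began 24 to 40 bases after the stop codon, and the H1f1 model ended after 15 of its 16 letters. The H1f5 model ended at the stop codon, so the region after it was not searched. H1f0 and H1f10 did not hold these letters.

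Some replication-linked genes also have a longer annotated transcript. The RefSeq model of H1f2, which gave the length used here, is 725 bases long and ends at the stem-loop, whereas its GENCODE transcript runs on for 836 bases. The annotation release behind the counts was not given, so the exact span on which its reads were counted is not known. Among the GENCODE transcripts of the members, 4 held AATAAA, the main poly(A) signal, in their last 50 bases, as did 40.5% of all protein-coding transcripts. These are shown because they are the members annotated to end in the manner of a polyadenylated mRNA, with the signal in capitals.
H1f0, chr15:79030475-79030496, plus strand: aactttaaAATAAAactggaaa
H1f2, chr13:23740334-23740355, plus strand: atgcttctAATAAAaagcgttt
H1f6, chr13:23696691-23696712, plus strand: tacgccagAATAAAggtcacca
H1f10, chr6:87980428-87980449, minus strand: tggggcgcAATAAAcggttcca
H1f2 and H1f6 were the members with both a stem-loop and such a signal in 1 transcript. The long GENCODE transcripts of H1f3 and H1f4 held no AATAAA in their last 50 bases. Anywhere after the stop codon, that of H1f3 held 7, that of H1f2 held 1 and that of H1f4 held 0.

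Before the results, 2 features of the libraries bear on every value. Of the 9 erythroid markers used for the check, including the globin genes Hba-a1 and Hbb-bs, none was at 0 in any library, and their summed level was 844 and 915 CPM at day 0 and 17180 and 19263 CPM at day 4. CPM are read counts relative to library size, scaled with edgeR's TMM factors. Hba-a1, at 9793 and 11460 CPM, and Hbb-bs, at 4969 and 5101 CPM, made up most of the day 4 sum. From day 0 to day 4, 8 of the 9 markers were called higher, and the erythroid factor gene Klf1 was called lower (172 against 251 CPM, log2 fold change -0.54, edgeR adjusted p = 0.0188). Of 7 granulocyte and macrophage markers with a transcript, 4 or 5 were at 3 counts or fewer in each library. S100a8 and S100a9 were at 0 in all 6. The sum of the 7 was 6.45 and 6.33 CPM at day 0, 1.39 and 1.40 CPM at day 2, and 2.58 and 2.03 CPM at day 4. Cd68, at 4.93 and 4.86 CPM, made up most of the day 0 sums, and Csf1r had 1.25 and 1.11 CPM there. Of 3 tested from day 0 to day 4, 0 were called higher, 2 were not called and Cd68 was called lower (log2 fold change -1.76, edgeR adjusted p = 2.11e-05). The day 0 cultures differed in the replication-linked genes. Replicate 2 was 1.85 times replicate 1 for H1f1, 2.14 times for H1f5, 2.63 times for H1f2, 2.66 times for H1f4 and 3.51 times for H1f3. H1f0 differed between the same libraries by 1.06 times, and the summed level of 57 clustered core histone genes was 811 and 842 CPM. In bulk libraries, fewer cells of a type and less RNA per cell cannot be told apart.

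H1f0 rose early and stayed high. Its level was 53.4 and 56.5 CPM in the day 0 replicates, 260 and 279 CPM at day 2, and 243 and 277 CPM at day 4. Both later days lay above both day 0 libraries, while days 2 and 4 overlapped. By day 2 the fold change was 4.91 (log2 fold change 2.29 with an SE of 0.12, edgeR quasi-likelihood test, Benjamini-Hochberg adjusted p = 1.76e-07). By day 4 it was 4.73 against day 0 (log2 fold change 2.24 with an SE of 0.12, edgeR adjusted p = 7.16e-08). Between days 2 and 4 the difference missed the threshold of 0.05 (log2 fold change -0.05 with an SE of 0.11, edgeR adjusted p = 0.748). Among the 18351 tested transcripts, the log2 fold change of H1f0 by day 2 stood at percentile 97.4.

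**Figure D1:**
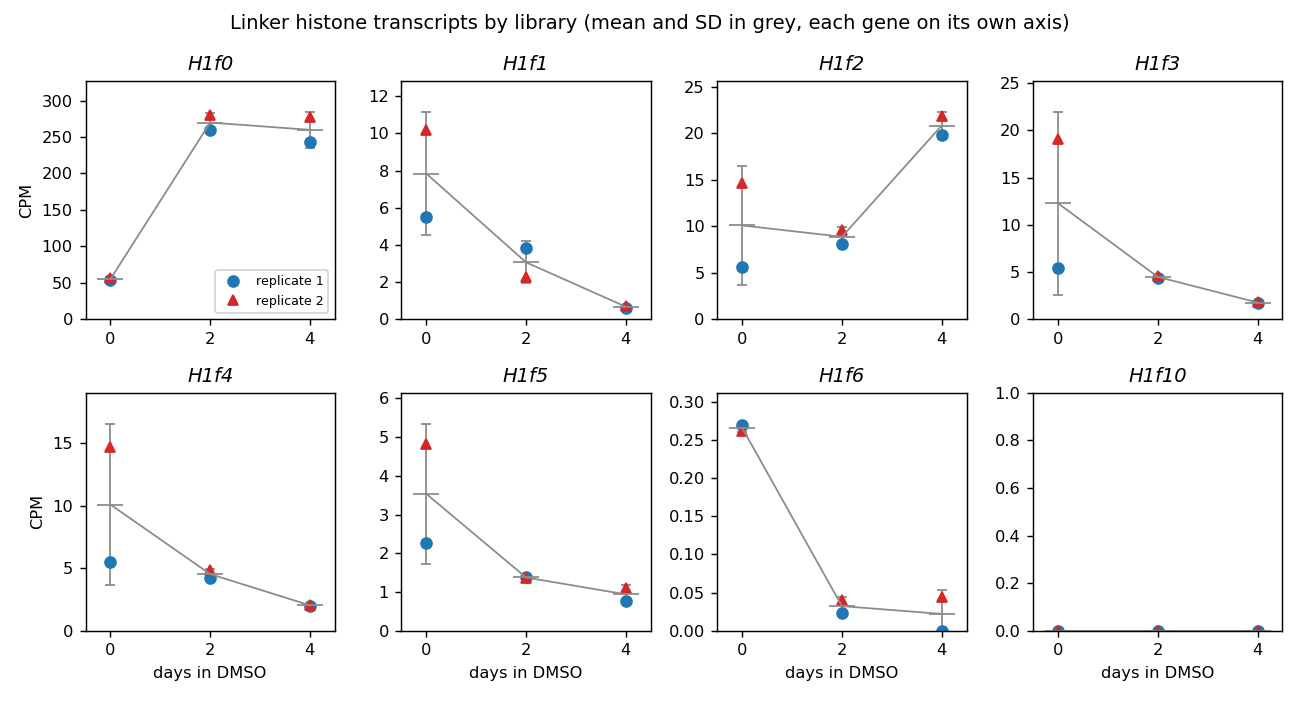
CPM of each linker histone (vertical axes, each from 0 and on its own scale) against days in DMSO (horizontal axes), with blue circles for replicate 1, red triangles for replicate 2, and grey bars for the mean and SD of 2 libraries. H1f0 went from about 55.0 to 269.7 CPM by day 2, H1f2 was highest at day 4, H1f1, H1f3, H1f4 and H1f5 were lowest at day 4, and H1f10 was at 0 in all 6 libraries.

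H1f1, H1f3, H1f4 and H1f5, which encode replication-linked subtypes, were lower at day 4 than at day 0. H1f1 had 5.49 and 10.2 CPM at day 0, 3.86 and 2.26 CPM at day 2, and 0.609 and 0.729 CPM at day 4. No day overlapped another for this gene. It was 11.6-fold lower at day 4 than at day 0 (log2 fold change -3.54 with an SE of 0.37, edgeR adjusted p = 6.83e-06) and was called at both steps, with log2 fold changes of -1.37 by day 2 (edgeR adjusted p = 0.00233) and -2.17 from day 2 to day 4 (edgeR adjusted p = 0.00238).

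H1f3 had 5.44 and 19.1 CPM at day 0, 4.36 and 4.60 CPM at day 2, and 1.72 and 1.81 CPM at day 4. Its days did not overlap either, although day 0 replicate 1 stood close to day 2. It was 6.98-fold lower at day 4 than at day 0 (log2 fold change -2.80 with an SE of 0.46, edgeR adjusted p = 0.000231). By day 2 its log2 fold change was -1.46 (edgeR adjusted p = 0.0101), but without day 0 replicate 2 it was -0.29 (edgeR adjusted p = 0.212). The early call was also lost without either day 2 library (edgeR adjusted p = 0.0739 and 0.0661) and with DESeq2 (adjusted p = 0.0596). From day 2 to day 4 it missed the threshold (log2 fold change -1.34 with an SE of 0.48, edgeR adjusted p = 0.0539), and a fit of days 2 and 4 alone called it (edgeR adjusted p = 5.24e-05).

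H1f4 had 5.51 and 14.6 CPM at day 0, 4.21 and 4.84 CPM at day 2, and 1.99 and 2.08 CPM at day 4, again with no overlap between days. It was 4.97-fold lower at day 4 than at day 0 (log2 fold change -2.31 with an SE of 0.37, edgeR adjusted p = 0.000188). The log2 fold change was -1.16 by day 2 (edgeR adjusted p = 0.0118) and -1.15 from day 2 to day 4 (edgeR adjusted p = 0.0411). Without day 0 replicate 2 the first of these was -0.29 (edgeR adjusted p = 0.215), and it also lost its call without either day 2 library (edgeR adjusted p = 0.0925 and 0.0584). The second lost its call without any 1 of the day 2 and day 4 libraries (edgeR adjusted p from 0.126 to 0.183).

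H1f5 had 2.25 and 4.81 CPM at day 0, 1.39 and 1.36 CPM at day 2, and 0.776 and 1.10 CPM at day 4, so that the days did not overlap. It was 3.74-fold lower at day 4 than at day 0 (log2 fold change -1.90 with an SE of 0.35, edgeR adjusted p = 0.000492). By day 2 the log2 fold change was -1.37 (edgeR adjusted p = 0.00384), or -0.72 without day 0 replicate 2 (edgeR adjusted p = 0.0392), and the later step of -0.53 did not pass (edgeR adjusted p = 0.307). Without day 0 replicate 2, the log2 fold change over the 4 days was -3.03 for H1f1, -1.63 for H1f3, -1.45 for H1f4 and -1.25 for H1f5, and all 4 were still called.

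H1f2 encodes a replication-linked subtype from the same cluster and went the other way late in the course. It had 5.56 and 14.6 CPM at day 0, 8.12 and 9.63 CPM at day 2, and 19.8 and 21.9 CPM at day 4. The day 2 libraries lay between the day 0 libraries, and both day 4 libraries lay above the other 4. From day 2 to day 4 it was 2.35-fold higher (log2 fold change 1.23 with an SE of 0.32, edgeR adjusted p = 0.0146), which stood at percentile 98.6 of all tested transcripts. For day 4 against day 0 it was 2.05-fold higher (log2 fold change 1.04 with an SE of 0.32, edgeR adjusted p = 0.0118). The early step was not called (log2 fold change -0.19, edgeR adjusted p = 0.617), and its direction turned on the day 0 libraries. It was -0.72 without day 0 replicate 1 (edgeR adjusted p = 0.000624) and 0.67 without day 0 replicate 2 (edgeR adjusted p = 0.00342).

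The calls of H1f2 were less firm than that of H1f0. DESeq2 gave log2 fold changes of 1.24 and 1.03 for the late step and for the whole course, with adjusted p = 0.0726 and 0.0905, and called neither. Without day 0 replicate 1 the log2 fold change over the 4 days was 0.51 and without day 0 replicate 2 it was 1.90, and edgeR called both. The late step was called without either day 0 library, and lost its call without day 2 replicate 1, day 2 replicate 2 or day 4 replicate 2 (edgeR adjusted p = 0.152, 0.0792 and 0.0722).

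**Figure D2:**
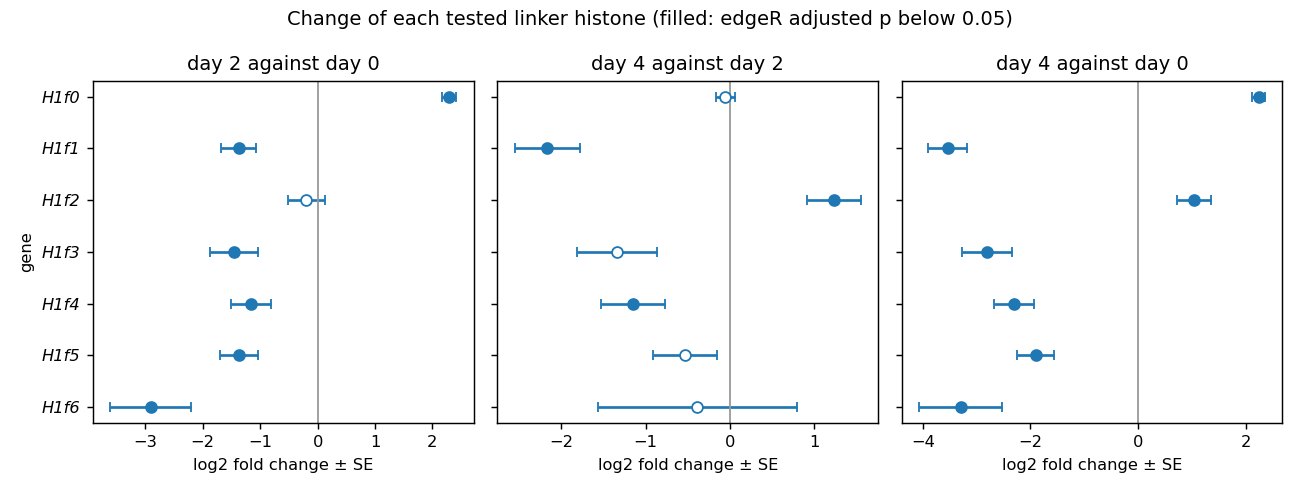
Log2 fold change (horizontal axes, each panel on its own scale) of the 7 tested linker histones (vertical axis) for day 2 against day 0, day 4 against day 2 and day 4 against day 0, with bars of 1 standard error and filled points for an edgeR adjusted p below 0.05. In the right panel H1f0 at 2.24 and H1f2 at 1.04 lie above 0 and the other 5 genes between -3.54 and -1.90.

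The testis gene H1f6 was near the limit of detection. It had 11 and 13 counts in the day 0 libraries, 1 and 2 counts at day 2, and 0 and 2 counts at day 4. It passed the filter on low counts only through day 0, so that it could be called in 1 direction only, and its test is not read as a result. Pooled over the libraries of a day and scaled by library size, day 0 was 8.04 times day 2 (exact 95% interval 2.44 to 41.7) and 10.8 times day 4 (exact 95% interval 2.68 to 94.2). These intervals cover counting error only and leave out the spread between libraries. Since the gene entered only through day 0, they are not read as a result either.

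H1f10 had 0 counts in all 6 libraries and was not tested. A count of 0 allows an expected count of up to 3, or 0.0604 to 0.0831 CPM in these libraries. A transcript below that level could therefore have been missed at this depth. The oocyte subtype H1f8 had 1 count in day 2 replicate 1 and 0 in the other libraries, the testis subtype H1f7 had 0 in every library, and H1f9 was not matched to a transcript.

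By day 2, 1 member was called higher (H1f0) and 5 lower, among them H1f6, whose call could go only that way, where 63.4% of all 18351 tested transcripts were called, 31.9% higher and 31.6% lower. From day 2 to day 4, 1 was called higher (H1f2) and 2 lower (H1f1 and H1f4), where 31.0% of all were called, 14.6% higher and 16.4% lower. For day 4 against day 0, all 7 tested members of 8 were called, 2 higher and 5 lower, again with H1f6 among the lower, where 72.3% of all were called, 36.2% higher and 36.1% lower. Each day enters 2 of the 3 comparisons, so their calls are not separate evidence. The median log2 fold change of the tested members, H1f6 included, was -1.37, -0.53 and -2.31 in the same order, and that of all tested transcripts was 0.020, -0.0031 and -0.00044. Scaling by total counts alone moved the median of all transcripts to 0.22, -0.087 and 0.11 and the share of calls that were lower from 49.8% to 35.5%, from 52.8% to 66.8% and from 49.9% to 44.2%, and it left the direction of every called member as it was.

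Levels of different genes were set side by side as CPM per kilobase of RefSeq transcript. At day 0, H1f0 averaged 24.0 ± 0.970 CPM per kilobase, H1f3 15.8 ± 12.5, H1f2 13.9 ± 8.84, H1f4 12.9 ± 8.26, H1f1 10.5 ± 4.45, H1f5 4.45 ± 2.28 and H1f6 0.362 ± 0.00743 (SD, n = 2). Each of the first 5 in this order overlapped its neighbour, whereas H1f5 lay below H1f1 and H1f6 below H1f5 in both libraries. At day 4, H1f0 averaged 113 ± 10.6 and H1f2 28.7 ± 2.01 CPM per kilobase, and H1f4 followed at 2.60 ± 0.0743, H1f3 at 2.27 ± 0.0858, H1f5 at 1.18 ± 0.293 and H1f1 at 0.898 ± 0.114 (SD, n = 2). The day 4 ranges of H1f5 and H1f1 overlapped, and those of the other neighbours above them did not.

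The make-up of the linker histone transcripts differed between the days. H1f0 took 41.9% and 22.8% of the family's CPM per kilobase in the day 0 libraries, 79.5% and 80.1% at day 2, and 75.7% and 76.3% at day 4. The day 0 replicates lay further apart than the libraries of any later day, and both were below all later libraries. H1f2 took 13.8% and 18.6% at day 0, 7.86% and 8.73% at day 2, and 19.6% and 19.0% at day 4. The other members together took 44.3% and 58.6% at day 0, 12.6% and 11.1% at day 2, and 4.70% and 4.69% at day 4. These are shares of transcripts, and protein was not measured.

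**Figure D3:**
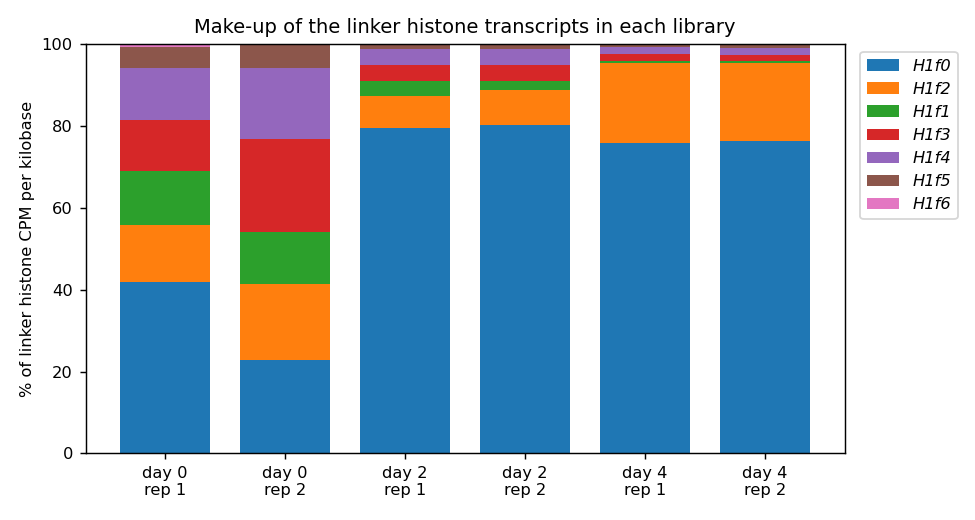
Stacked shares (vertical axis, percent of the summed CPM per kilobase of the linker histones) in each of the 6 libraries (horizontal axis), colored by gene; H1f10 was at 0. H1f0 fills 22.8% and 41.9% of the day 0 bars and at least 75.7% of the others, and H1f2 is the second block at day 4.

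The sum over the family was higher at the later days with H1f0, and not without it. It was 55.6 and 108 CPM per kilobase at day 0, 143 and 152 at day 2, and 140 and 158 at day 4. Without H1f0 the sum was 32.3 and 83.6 at day 0, 29.2 and 30.2 at day 2, and 33.9 and 37.6 at day 4, so that day 0 replicate 1 overlapped the later days and day 0 replicate 2 did not. The sum of H1f1, H1f3, H1f4 and H1f5 was 24.3 and 63.1 at day 0, 17.9 and 16.9 at day 2, and 6.56 and 7.36 at day 4, and its days did not overlap.

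Ratios within a library were taken because the day 0 replicates differed in level. The ratio of H1f2 to the sum of H1f1, H1f3, H1f4 and H1f5, in CPM per kilobase, was 0.316 and 0.320 in the day 0 replicates, where the replicates differed in the level of each of these genes. It was 0.624 and 0.787 at day 2, and 4.17 and 4.10 at day 4. Among H1f1 to H1f5, H1f2 thus went from 24.0% and 24.2% of the transcripts to 38.4% and 44.0% and then to 80.6% and 80.4%, while H1f1 went from 23.1% and 16.4% to 2.41% and 2.61%. For the share of H1f2, the 2 libraries of each day lay closer to each other than to any library of another day, whereas the day 0 and day 2 ranges of H1f1 overlapped (17.8% and 10.1% at day 2). The ratio of H1f0 to the sum of H1f1 to H1f5 was 0.729 and 0.296 at day 0, 3.89 and 4.04 at day 2, and 3.12 and 3.22 at day 4. With 2 libraries per day, an exact permutation test of 2 days cannot reach 0.05, and these ratios are given as a description.

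**Figure D4:**
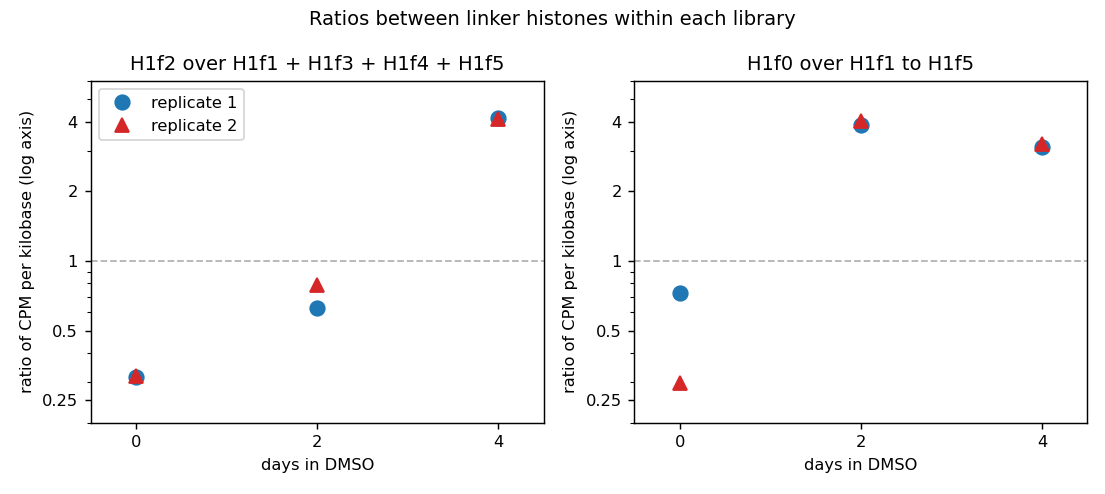
Ratios of CPM per kilobase within each library (vertical axes, log scale, dashed line at 1) against days in DMSO (horizontal axes), with circles for replicate 1 and triangles for replicate 2. The left panel has H1f2 over the sum of H1f1, H1f3, H1f4 and H1f5, from about 0.32 at day 0 to 4.10 and 4.17 at day 4, and the right panel has H1f0 over the sum of H1f1 to H1f5, where the day 0 replicates lie at 0.296 and 0.729.

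Similar coding sequences limit how well some members can be told apart. H1f3 and H1f4 shared 84.0% of aligned coding bases, H1f2 and H1f3 82.7%, and H1f2 and H1f4 80.0%, in GENCODE M21 models. Of all words of 30 bases in the RefSeq span, 25.6% of those of H1f2, 29.9% of H1f3 and 25.9% of H1f4 also occurred in a transcript of another gene, against 4.34% for H1f5, 0.423% for H1f1 and 0% for H1f0, H1f6 and H1f10. Such words of H1f2, H1f3 and H1f4 occurred only in other replication-linked linker histones. The deposited tables list 0 ambiguous and 0 non-uniquely aligned reads in every library, and how the counting treated reads that fit more than 1 gene was not given in the sources used here. H1f2 and H1f4 were called in opposite directions from day 2 to day 4, and the part of shared reads in either value was not tested.

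**Figure D5:**
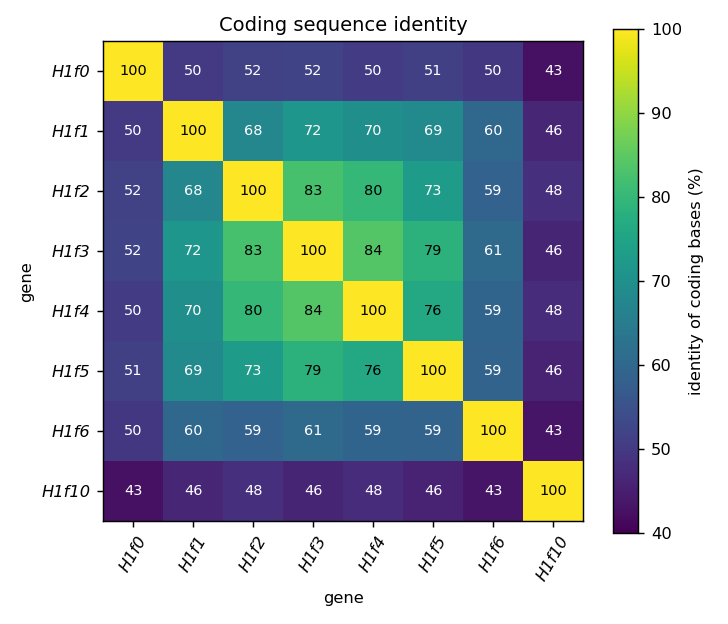
Identity of aligned coding bases (color and printed value, percent) for every pair of the 8 linker histone genes on both axes. H1f2, H1f3 and H1f4 form the block of highest identity, from 80.0% to 84.0%, and H1f0 shares at most 52.3% with any other member.

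The genes with the profile closest to that of H1f0 were Zcchc24, Fry, Ppp6r2, Slc25a21 and Mettl27. Likeness was the root mean square difference of log2 CPM over the 6 libraries, after each gene was centred on its own mean, among 8480 genes with a mean of at least 10 CPM. It ran from 0.058 for Zcchc24 to 0.13 for Mettl27, against a median of 1.09. For H1f2, the replication-linked member with the most counts, the closest included Hoxc6, Col11a2, Nr1h2 and Rrnad1, from 0.28 to 0.31 against a median of 0.73. The fits to H1f2 were looser than those to H1f0.

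Other genes that package DNA or handle histones were taken from lists, and the counts are for day 4 against day 0, where 36.2% of all tested transcripts were called higher and 36.1% lower. Replacement core histones were called at a share near that of all transcripts. Of 8 listed, 7 were tested, 2 were higher, 3 lower and 2 not called, with a median log2 fold change of -0.20. H2az2 rose (log2 fold change 1.03 with an SE of 0.10, edgeR adjusted p = 5.03e-06) and so did H3f3a, 1 of the genes for histone H3.3 (0.89 with an SE of 0.13, edgeR adjusted p = 0.000111). H3f3b, the other H3.3 gene and the more abundant one, was lower at 155 against 186 CPM (log2 fold change -0.26 with an SE of 0.10, edgeR adjusted p = 0.0417). H2az1, which encodes the main H2A.Z, fell by 2.36 on the log2 scale (SE 0.26, edgeR adjusted p = 1.1e-05), and the centromeric H3 gene Cenpa fell by 1.40 (SE 0.12, edgeR adjusted p = 1.67e-06). Macroh2a2 was not tested.

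Genes listed for making and processing histone mRNAs, not all of which act on the stem-loop end, were mostly lower. Of 12 tested, 9 were lower, 0 higher and 3 not called, where 36.1% of all transcripts were lower, with a median log2 fold change of -0.77. At an unadjusted p below 0.05 edgeR also had 0 higher. Zfp473, which binds the U7 particle and the stem-loop binding protein, had the lowest log2 fold change (-1.89 with an SE of 0.19, edgeR adjusted p = 5.46e-06), followed by the cleavage factor gene Cstf2 (-1.49 with an SE of 0.13, edgeR adjusted p = 1.78e-06). Lsm11, a U7 particle subunit gene, had 0.24 (edgeR adjusted p = 0.0926) and Npat, the gene of the cyclin E substrate that drives histone transcription, had -0.07 (edgeR adjusted p = 0.584).

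All 8 tested genes of linker histone chaperones and importers were lower, with a median log2 fold change of -1.34. Nasp, whose product is a chaperone that binds linker histones, was 5.76-fold lower (log2 fold change -2.53 with an SE of 0.12, edgeR adjusted p = 3.84e-08), and Npm1, which encodes nucleophosmin, was 3.68-fold lower (-1.88 with an SE of 0.14, edgeR adjusted p = 7.70e-07). The smallest changes were those of the chaperone gene Nap1l4 (-0.34, edgeR adjusted p = 0.0156) and the importin gene Ipo7 (-0.96, edgeR adjusted p = 1.86e-05).

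Of 14 genes of proteins that compete with linker histones for nucleosomes or linker DNA, 12 were tested and 10 were lower, with a median log2 fold change of -1.003. Hmga1, an architectural AT-hook protein gene, was 6.19-fold lower (14.8 against 91.4 CPM, log2 fold change -2.63 with an SE of 0.17, edgeR adjusted p = 1.99e-07), and the nucleosome binding gene Hmgn5 was 5.85-fold lower (log2 fold change -2.55 with an SE of 0.22, edgeR adjusted p = 1.54e-06). Cbx5, which encodes heterochromatin protein 1 alpha, had a log2 fold change of -0.20 (edgeR adjusted p = 0.162).

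S phase genes and clustered core histones moved with the replication-linked linker histones other than H1f2. All 18 tested S phase genes were lower at day 4 than at day 0, with a median log2 fold change of -1.53, from Rrm2, a ribonucleotide reductase subunit gene (-2.60, edgeR adjusted p = 3.11e-08), and the thymidylate synthase gene Tyms (-2.40, edgeR adjusted p = 2.14e-07) to Top2a (-0.999, edgeR adjusted p = 2.92e-05) and Mki67 (-0.91, edgeR adjusted p = 0.000129). Their summed level was 6724 and 6971 CPM at day 0, 5036 and 4918 at day 2, and 2615 and 2893 at day 4. Mki67, with means of 2024 CPM at day 0 and 1958 at day 2, and Top2a, with 1068 and 1133, made up a large part of these sums. By day 2 neither was called (log2 fold change -0.05 and 0.08), nor was Cdc6. The other 15 S phase genes were lower by day 2, where 31.6% of all tested transcripts were lower. The summed level of the 57 clustered core histone genes was 811 and 842 CPM at day 0, 321 and 297 at day 2, and 206 and 217 at day 4. The part of S phase in the changes of the linker histones was not tested. Between the day 0 replicates neither sum differed by as much as H1f1 to H1f5 did, but single genes stood further apart, such as H2az1 at 359 and 749 CPM, the chromatin protein gene Hmgb2 at 153 and 366 CPM and the cyclin gene Ccna2 at 193 and 317 CPM, 3 genes picked with their values in view. The median of the core histone genes was 4.02 and 6.16 CPM in these replicates, and 28 of the 57 were higher in replicate 2 when scaled by library size.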

How the data were processed

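The authors made stranded poly(A) mRNA libraries, trimmed adapters with cutadapt and aligned reads to mm10 with TopHat, and the submitters' processing notes name HTSeq. They deposited unnormalized read counts for 32654 RefSeq transcripts, with replicates kept apart. The strand setting, annotation release and treatment of shared reads were not given in the sources used here. Reads on no feature, 50.5% to 58.4% of each library, were left out. The labels gave day and replicate number. The p-values rest on variation between libraries that was estimated over all days together and drew on all tested transcripts.

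Counts were tested with edgeR 4.0.16 (R 4.3.3), using TMM factors (0.921 to 1.07), filterByExpr (18351 transcripts kept) and 1 quasi-likelihood fit of the 6 libraries together, in which each day had its own mean. P-values were adjusted over all tested transcripts by the Benjamini-Hochberg method, with a call below 0.05. Standard errors (SE) were the size of each log2 fold change divided by the root of its F. DESeq2 1.42.0, other scalings, filters and samples, and a replicate block were alternatives. Symbols, coordinates and promoters came from RefSeq (GRCm38), transcripts from GENCODE M21, and a pseudocount of 0.5 CPM entered the likeness measure. The fits were tested on simulated counts, which did not model the differences seen between the day 0 replicates. The rule for named genes was all 8 members, up to 4 extremes per list for day 4 against day 0, and the 5 genes most like H1f0 and like the most counted replication-linked member. The members and lists were chosen with earlier results of these data known. Some genes that this rule would name are not reported here.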

Additional observations from a re-analysis of the deposited data

How the results depend on the processing

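The values of H1f0, H1f1, H1f3, H1f4 and H1f5 for day 4 against day 0, those of H1f0, H1f1 and H1f5 by day 2, and those of H1f1 and H1f5 from day 2 to day 4 kept their direction and their side of the threshold under all 15 alternatives. For the changes that follow, the cause was not tested. By day 2 DESeq2 called 3 members lower where edgeR called 5. It called 0 members higher from day 2 to day 4 where edgeR called 1, and 1 higher over the 4 days where edgeR called 2. Leaving out single libraries moved the number called higher by day 2 from 1 to 2 and the number called lower from 3 to 6. From day 2 to day 4 the ranges were 0 to 1 and 1 to 3, and over the 4 days each omission gave 2 and 5. A day left with 1 library was assumed to vary like the others. H1f2 for day 2 against day 0 turned to 0.0096 with total counts and ranged from -0.72 to 0.67 without single libraries. For day 4 against day 2, that range was -0.16 to 0.038 for H1f0 and -3.64 to 0.39 for H1f6, neither of which was called. Without division by transcript length, the share of H1f0 was 57.8%, 92.3% and 90.8% at days 0, 2 and 4, that of H1f2 was 9.66%, 3.03% and 7.29%, and that of the others was 32.6%, 4.62% and 1.90%. At 3 counts or fewer, H1f6 at the later days and H1f10 were near the limit of counting, and why H1f10 had none was not tested.

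The labels do not say whether a replicate number marks a shared culture or date. Differences between replicates correlated across 18351 transcripts by 0.034 for days 0 and 2, 0.030 for days 0 and 4, and 0.12 for days 2 and 4. These low values cannot show whether the cultures were paired. The replicate block gave 1 call up and 5 down by day 2, 1 up and 3 down from day 2 to day 4, and 2 up and 5 down over the 4 days. H1f3 gained its late call there (-1.38 on the log2 scale, edgeR adjusted p = 0.0346), and the block changed no other call of a member.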
